A study of Homo sapiens with 4 samples.

Results

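The interleukin-1 (IL-1) family in human keratinocytes was examined through 10 of its genes, namely the agonists IL1A, IL1B, IL18, IL33 and IL36G, the antagonists IL1RN and IL36RN, and the receptor chains IL1R1, IL1RAP and IL1R2. They were taken by exact gene name from the deposited count tables, and all 10 were found among the 58735 genes listed. The cells were HaCaT, an established keratinocyte line (spelled HaCAT in the labels, genotype WT), transfected with siRNA against ALKBH5 (siALKBH5) or with normal control siRNA (siControl). The study asked what the loss of ALKBH5, a demethylase that removes N6-methyladenosine (m6A) from mRNA, does to keratinocytes. Poly-A RNA was sequenced from 2 libraries per group, and the labels name no cytokine or other stimulus. The labels do not say whether the libraries of a group came from separate cultures, so the p-values measure only the spread between these libraries, which may be technical.

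IL-1α and IL-1β, the products of IL1A and IL1B, signal by binding IL1R1, which then recruits the shared chain IL1RAP and the adaptor MYD88. IL1RN encodes the receptor antagonist, which occupies IL1R1 without recruiting IL1RAP, and IL1R2 encodes a decoy receptor that lacks a signalling domain. IL-18, IL-33 and the IL-36 cytokines use related receptors, and the product of IL36RN blocks the IL-36 receptor. Keratinocytes are known as barrier cells that hold stores of IL-1 family precursors and of the antagonist.

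Library totals ran from 16017502 to 18837807 counts, and 3 counts, taken as the detection floor, stood for 0.159 to 0.187 CPM, that is, counts scaled to a common library size. This floor covers counting error only. Mitochondrial genes took 10.2% of the counts in either siControl library, against 9.63% and 9.64% in siALKBH5. ALKBH5 itself (ENSG00000091542, chr17:18183078-18209954, GRCh38) fell from 90.7 ± 4.42 CPM in siControl to 50.4 ± 1.13 CPM in siALKBH5 (SD, n = 2 each), a log2 fold change of -0.85 ± 0.053 (SE) with an edgeR adjusted p of 6.4e-15. All 8 keratinocyte markers examined passed the expression filter, and their summed level was 16097 to 16456 CPM in siControl and 21391 to 21407 CPM in siALKBH5. KRT5, at 7034 CPM in siControl and 11248 CPM in siALKBH5, carried most of this difference, while of the 8 markers 3 rose (KRT5, KRT14 and SFN), 3 fell (TP63, PERP and ITGA6) and 2 did not pass the test, with a median log2 fold change of -0.052. Of the 21 markers of other skin cells, the leukocyte gene TYROBP, the Langerhans cell gene CD1A, the melanocyte gene TYR and the fibroblast genes COL1A2 and PDGFRA were at 0 in every library. The leukocyte gene PTPRC had at most 2 counts. Other markers of these cells were detected, among them COL1A1 at 16.9 CPM, VWF at 18.8 CPM and CDH5 at 13.8 CPM in siControl.

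Of the 10 IL-1 family members, 7 passed the filter on low counts and could be tested. At an adjusted p under 0.05, 1 of them rose, 3 fell and 3 did not pass the test. Over all 15075 genes tested the same rule called 36.6%, with 19.3% higher and 17.3% lower, so the 4 calls among 7 members stand against a background in which calls were common. The study's own cutoff, which also asks for an absolute log2 fold change of 1 or more, was passed by 0 of the 7 members and by 2.92% of all genes tested, 1.62% higher and 1.3% lower. The median log2 fold change of the 7 members was -0.23, against -0.0081 over all genes tested. For all 7 the CPM ranges of the groups did not overlap, which was also the case for 66.3% of all genes tested.

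The receptor antagonist IL1RN was the member that rose, while the agonist IL18 and the receptor chains IL1R1 and IL1RAP were those that fell. In bulk RNA of this kind, fewer cells expressing a gene and less RNA per cell cannot be told apart.

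**Figure D1:**
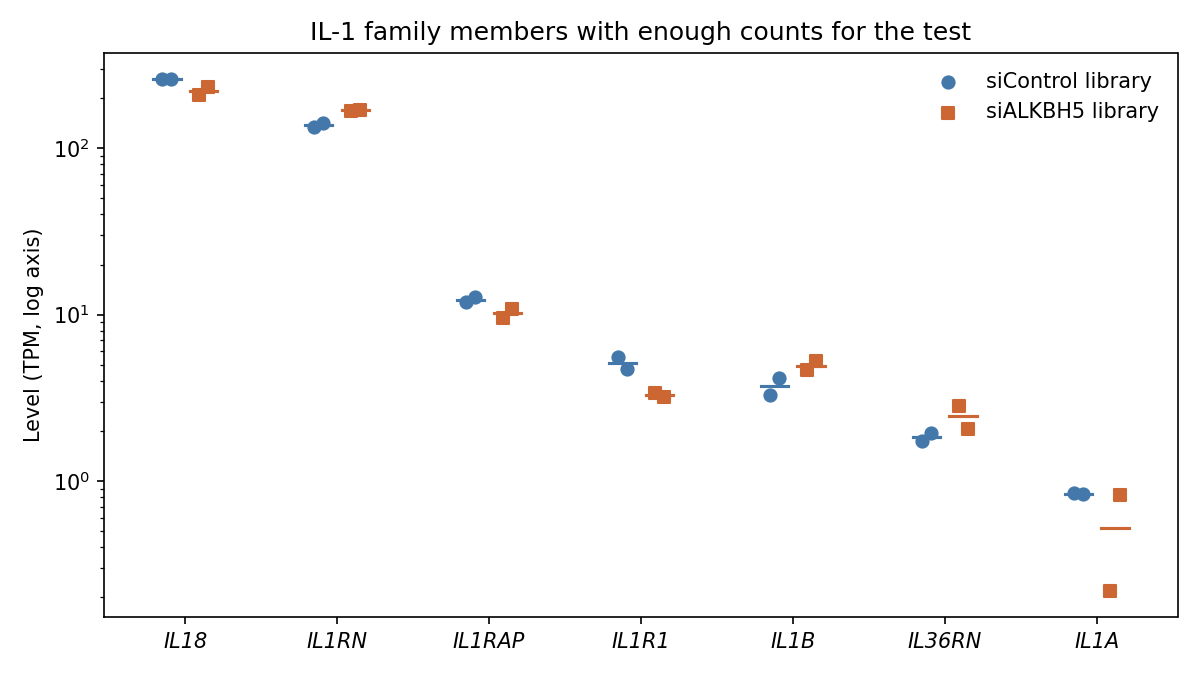
Level of the 7 tested members in each library, as TPM on a log axis, with siControl libraries as circles, siALKBH5 libraries as squares and group means as lines. IL18 and IL1RN lie far above the other members in every library, and the IL1A libraries of siALKBH5 lie apart at 0.217 and 0.819 TPM.

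To compare members with each other, levels were expressed as TPM, in which counts are divided by the listed gene length and scaled to the same total in each library. The order of members close in level depends on these lengths. For IL1R1 the listed length was 7083 bases against 5143 in its principal annotated transcript, and for IL1B 3096 against 1631. IL18 was the most abundant member in siControl at 261 ± 1.06 TPM, followed by IL1RN at 138 ± 6.50 TPM (SD, n = 2). IL1RAP came next at 12.3 ± 0.574 TPM, and IL1R1 at 5.13 ± 0.612 TPM lay above IL1B at 3.72 ± 0.605 TPM. A keratinocyte culture without a named stimulus thus held much IL18 and antagonist mRNA and little mRNA of the IL-1 agonists proper.

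The lower end of the siControl order was formed by IL36RN at 1.84 ± 0.149 TPM, IL1A at 0.837 ± 0.00764 TPM and IL36G at 0.434 ± 0.120 TPM. IL1R2 and IL33, at 0.143 ± 0.128 and 0.132 ± 0.0469 TPM, overlapped in their libraries and were not ordered. In siALKBH5 the upper ranks were the same, with IL18 at 222 ± 16.7 TPM, IL1RN at 169 ± 3.15 TPM and IL1RAP at 10.2 ± 0.945 TPM. By the listed lengths, IL1B at 4.92 ± 0.431 TPM then lay above IL1R1 at 3.29 ± 0.135 TPM, the reverse of their order in siControl. Divided by the transcript lengths instead, the counts put IL1R1 above IL1B in siControl replicate 1 and below it in siControl replicate 2. Their siControl order therefore depends on the length used, while IL1B lay above IL1R1 in both siALKBH5 libraries by either length. IL36RN, IL1A, IL36G and IL1R2 followed in the same order as in siControl, with IL1A and IL36G overlapping in their libraries, and IL33 was at 0.

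IL18 and IL1RN together made up 94.2% of the summed TPM of the 10 members in either siControl library and 94.7% in either siALKBH5 library. The part of IL18 was 62.3% and 61.0% in siControl and 52.8% and 54.7% in siALKBH5, and that of IL1RN was 31.9% and 33.2% against 41.9% and 40.0%. Within these shares the groups did not overlap for either gene. Among all genes of a library, IL18 ranked 384 and 377 by TPM in siControl and 509 and 442 in siALKBH5. IL1RN ranked 797 and 723 in siControl and 638 and 622 in siALKBH5.

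Among the agonists, IL18 (ENSG00000150782, chr11:112143251-112164117, minus strand), which encodes a cytokine released after cleavage by caspase-1, held 3829 and 4291 counts in siControl against 3596 and 3532 in siALKBH5. These corresponded to 238 and 238 CPM in siControl and to 193 and 215 CPM in siALKBH5. Both siALKBH5 libraries were lower than both siControl libraries, and the siALKBH5 libraries were further from each other than the siControl libraries were. IL18 fell from 238 ± 0.600 to 204 ± 15.6 CPM, to 85.5% of siControl, with a log2 fold change of -0.23 (95% interval -0.30 to -0.15, edgeR adjusted p = 5.76e-06). Without siALKBH5 replicate 1 the log2 fold change was -0.15, still past the test.

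IL1B (ENSG00000125538, chr2:112829751-112836903, minus strand), the inducible agonist of the family, had 57 and 80 counts in siControl against 93 and 93 in siALKBH5. Its level was 3.54 and 4.45 CPM in siControl and 4.98 and 5.65 CPM in siALKBH5. Both siALKBH5 libraries were above both siControl libraries. The log2 fold change was 0.40 ± 0.19 (SE, 95% interval 0.0091 to 0.80), and with an edgeR adjusted p of 0.10 the gene did not pass the test. It was 0.26 without siControl replicate 1 and 0.58 without siControl replicate 2, and did not pass in either.

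IL1A (ENSG00000115008, chr2:112773915-112784590, minus strand), which encodes the IL-1α alarmin, had 10 and 11 counts in siControl against 3 and 10 in siALKBH5. The log2 fold change of -0.72 had a 95% interval from -1.99 to 0.56 and an edgeR adjusted p of 0.40. A single siALKBH5 library set this value, which was -0.02 without siALKBH5 replicate 1 and -1.89 without siALKBH5 replicate 2. A change of IL1A could therefore not be resolved at this depth in either direction.

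IL33 (ENSG00000137033, chr9:6215786-6257983, plus strand), an alarmin of barrier cells, had 3 and 2 counts in siControl against 0 and 0 in siALKBH5. IL36G (ENSG00000136688, chr2:112973203-112985665, plus strand), the IL-36 agonist of the epidermis, had 4 and 3 counts in siControl against 2 and 2 in siALKBH5. Both genes were at or near the floor in every library and neither was tested.

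Of the antagonists, IL1RN (ENSG00000136689, chr2:113107214-113134016, plus strand) held 2430 and 2894 counts in siControl against 3531 and 3202 in siALKBH5. These were 151 and 161 CPM in siControl and 189 and 195 CPM in siALKBH5, so that both knockdown libraries lay above both controls by more than the distance within either group. IL1RN rose from 156 ± 7.09 to 192 ± 3.91 CPM, to 123% of siControl, with a log2 fold change of 0.30 (95% interval 0.22 to 0.37, edgeR adjusted p = 3.94e-08). Leaving out each library in turn gave 0.26 to 0.35, and the gene passed the test each time.

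IL1RN is transcribed from several starts, which give a secreted and intracellular forms of the antagonist, and gene-level counts do not separate them. RefSeq (GRCh38.p14) lists 3 starts for it in the promoter table used. The 250 bases before the lowest and the highest of these starts are shown because IL1RN was the member that rose, with the AP-1 site TGACTCA or the TATA box TATAAA in capitals wherever either was found on either strand. The first lies at chr2:113117721-113117970 and the second at chr2:113127348-113127597, both on the plus strand:
IL1RN, lowest start: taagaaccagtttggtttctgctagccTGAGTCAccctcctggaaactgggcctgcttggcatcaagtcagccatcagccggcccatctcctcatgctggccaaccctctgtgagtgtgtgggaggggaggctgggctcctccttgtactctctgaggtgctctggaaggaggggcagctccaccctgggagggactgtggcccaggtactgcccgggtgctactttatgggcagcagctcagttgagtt
IL1RN, highest start: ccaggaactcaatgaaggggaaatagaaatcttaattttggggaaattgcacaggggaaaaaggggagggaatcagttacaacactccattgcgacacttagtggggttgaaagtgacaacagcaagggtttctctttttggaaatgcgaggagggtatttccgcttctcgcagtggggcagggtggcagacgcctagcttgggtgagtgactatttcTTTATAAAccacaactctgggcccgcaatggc
The lowest start has an AP-1 site whose first base lies 223 bases before it. The highest start has TATA box matches on both strands that overlap, at 32 and 30 bases before it. Over all 35116 promoters of the table, 4.2% hold TGACTCA and 10.7% hold TATAAA within the same length, and the middle IL1RN start has neither.

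IL36RN (ENSG00000136695, chr2:113058638-113065382, plus strand), the IL-36 receptor antagonist, had 32 and 40 counts in siControl against 61 and 39 in siALKBH5. Its level was 1.99 and 2.22 CPM in siControl and 3.27 and 2.37 CPM in siALKBH5. The second siALKBH5 library stood close to the controls, and the log2 fold change of 0.43 (95% interval -0.13 to 0.98) had an edgeR adjusted p of 0.23. It was 0.17 without siALKBH5 replicate 1 and 0.63 without siALKBH5 replicate 2. IL36RN was thus measured higher in both knockdown libraries without passing the test.

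Both receptor chains needed for IL-1 signalling fell. IL1R1 (ENSG00000115594, chr2:102064544-102179874, plus strand), the ligand-binding chain, had 220 and 207 counts in siControl against 156 and 130 in siALKBH5. Its level was 13.7 and 11.5 CPM in siControl and 8.35 and 7.90 CPM in siALKBH5, and the groups did not overlap. IL1R1 fell from 12.6 ± 1.52 to 8.13 ± 0.320 CPM, to 64.6% of siControl, the largest change among the members that passed the test. The log2 fold change was -0.62 (95% interval -0.90 to -0.35, edgeR adjusted p = 0.00036), and it was -0.75 to -0.50 when each library was left out in turn, past the test each time.

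IL1RAP (ENSG00000196083, chr3:190514051-190659750, plus strand), the co-receptor that IL-1, IL-33 and IL-36 receptors share, had 766 and 912 counts in siControl against 718 and 723 in siALKBH5. Its level was 47.5 and 50.7 CPM in siControl and 38.4 and 43.9 CPM in siALKBH5, so the second siALKBH5 library lay closer to the controls. IL1RAP fell from 49.1 ± 2.23 to 41.2 ± 3.88 CPM, to 83.9% of siControl, with a log2 fold change of -0.26 (95% interval -0.40 to -0.12, edgeR adjusted p = 0.0029). This call rested on siALKBH5 replicate 1, without which the log2 fold change was -0.16 and the edgeR adjusted p 0.128. IL1R2 (ENSG00000115590, chr2:101991844-102028544, plus strand), the decoy receptor, had 4 and 1 counts in siControl against 3 and 3 in siALKBH5, overlapped between the groups and was not tested.

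**Figure D2:**
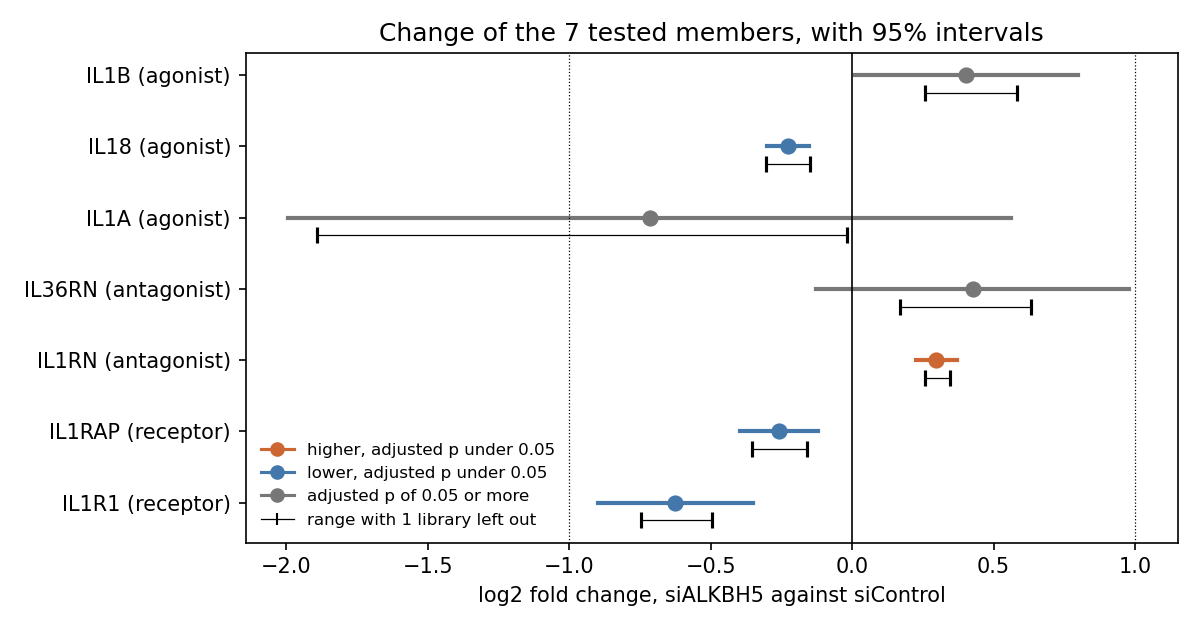
Log2 fold change of the 7 tested members in siALKBH5 against siControl, with thick lines for 95% intervals, thin lines for the range when each library is left out in turn, and dotted lines at -1 and 1. IL1RN lies above 0 and IL18, IL1RAP and IL1R1 lie below it, while the intervals of IL1A and IL36RN cross 0 and that of IL1B begins at 0.0091.

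The promoters of the receptor chains are shown because these genes fell in the same comparison. The 250 bases before the single RefSeq start of IL1RAP lie at chr3:190513835-190514084, and those before the highest of the 4 RefSeq starts of IL1R1 at chr2:102142496-102142745, both on the plus strand. Capitals mark the GC box GGGCGG on either strand:
IL1RAP: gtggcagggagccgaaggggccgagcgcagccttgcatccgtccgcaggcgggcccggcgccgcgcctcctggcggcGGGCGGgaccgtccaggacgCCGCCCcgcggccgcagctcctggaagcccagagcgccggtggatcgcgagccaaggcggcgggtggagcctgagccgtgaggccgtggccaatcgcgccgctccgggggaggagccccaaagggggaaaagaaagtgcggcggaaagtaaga
IL1R1, highest start: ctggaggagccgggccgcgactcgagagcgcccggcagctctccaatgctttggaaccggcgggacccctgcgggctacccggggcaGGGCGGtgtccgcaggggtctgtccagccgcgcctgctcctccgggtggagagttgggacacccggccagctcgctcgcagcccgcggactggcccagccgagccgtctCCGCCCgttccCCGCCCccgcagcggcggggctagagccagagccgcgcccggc
The GC content of these windows is 74.8% for IL1RAP and 76.8% for this IL1R1 start. The other IL1R1 starts have 52.4%, 50.0% and 39.6%. IL1RAP holds 2 GC boxes and this IL1R1 start holds 3, a motif that 42.6% of all promoters of the table contain. Of the other IL1R1 starts, 1 holds a GC box, 1 holds 2 TATA box matches and 1 holds neither. The counts do not show which start was in use. The table has no entry for IL18. The NF-kB consensus, searched on both strands as a base pattern with variable positions, was found at IL1R2. It was found in no promoter of the other members listed, against 9.96% of all promoters.

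The balance between IL1RN and the IL-1 agonists it blocks was followed as a ratio of TPM in each library, without a test, since 2 libraries against 2 are too few for an exact one to pass. The ratio of IL1RN to the sum of IL1A and IL1B was 32.3 and 28.7 in siControl and 34.5 and 28.3 in siALKBH5. These ratios overlapped, with a mean difference of 0.039 on the log2 scale. The larger of the SDs within a group on that scale was 0.20. The ratio of IL1RN to IL1A alone was 159 and 172 in siControl and 209 in siALKBH5 replicate 2, and IL1A was at the floor in siALKBH5 replicate 1. IL1RN mRNA thus exceeded that of IL1A and IL1B together in every library, while IL18 was above IL1RN in every library.

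The ratio of IL36RN to IL36G and that of the decoy IL1R2 to IL1R1 could be formed over the floor only in siControl replicate 1, where they were 3.35 and 0.0419. In the other libraries IL36G or IL1R2 had 3 counts or fewer.

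Most members lie in a pair of gene clusters on chromosome 2. The receptor cluster runs from 101991844 to 102452565 and holds 6 protein-coding genes, of which IL1R1 fell, while IL1RL2, the IL-36 receptor chain, and IL18R1, the IL-18 receptor chain, were tested and did not pass. IL18R1 had 14 and 15 counts in siControl against 8 and 10 in siALKBH5, with a log2 fold change of -0.72 (edgeR adjusted p = 0.29). IL1RL1, the IL-33 receptor, had at most 2 counts and IL18RAP had 0 in every library. The kinase gene MAP4K4, next to the cluster on the IL1R2 side, rose by a log2 fold change of 0.39 (edgeR adjusted p = 4.8e-08). SLC9A4, on the other side, had a value of 0.41 (edgeR adjusted p = 0.30).

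The ligand cluster runs from 112773915 to 113134016 and holds 9 protein-coding genes. IL1RN was the gene in it that passed the test, IL1A, IL1B and IL36RN were tested without passing, and IL36A and IL36B had 0 counts in every library. IL37, an anti-inflammatory member, had 4 and 3 counts in siControl against 0 and 4 in siALKBH5, and IL1F10 had 7 and 5 counts against 10 and 8. The neighbour on the IL1A side, CKAP2L, which encodes a mitotic spindle protein, rose by a log2 fold change of 0.81 (edgeR adjusted p = 7.4e-08). PSD4, the neighbour of IL1RN on the other side, had a log2 fold change of 0.03 (edgeR adjusted p = 0.70). Whether IL1RN differs from the other genes of the cluster was not tested.

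**Figure D3:**
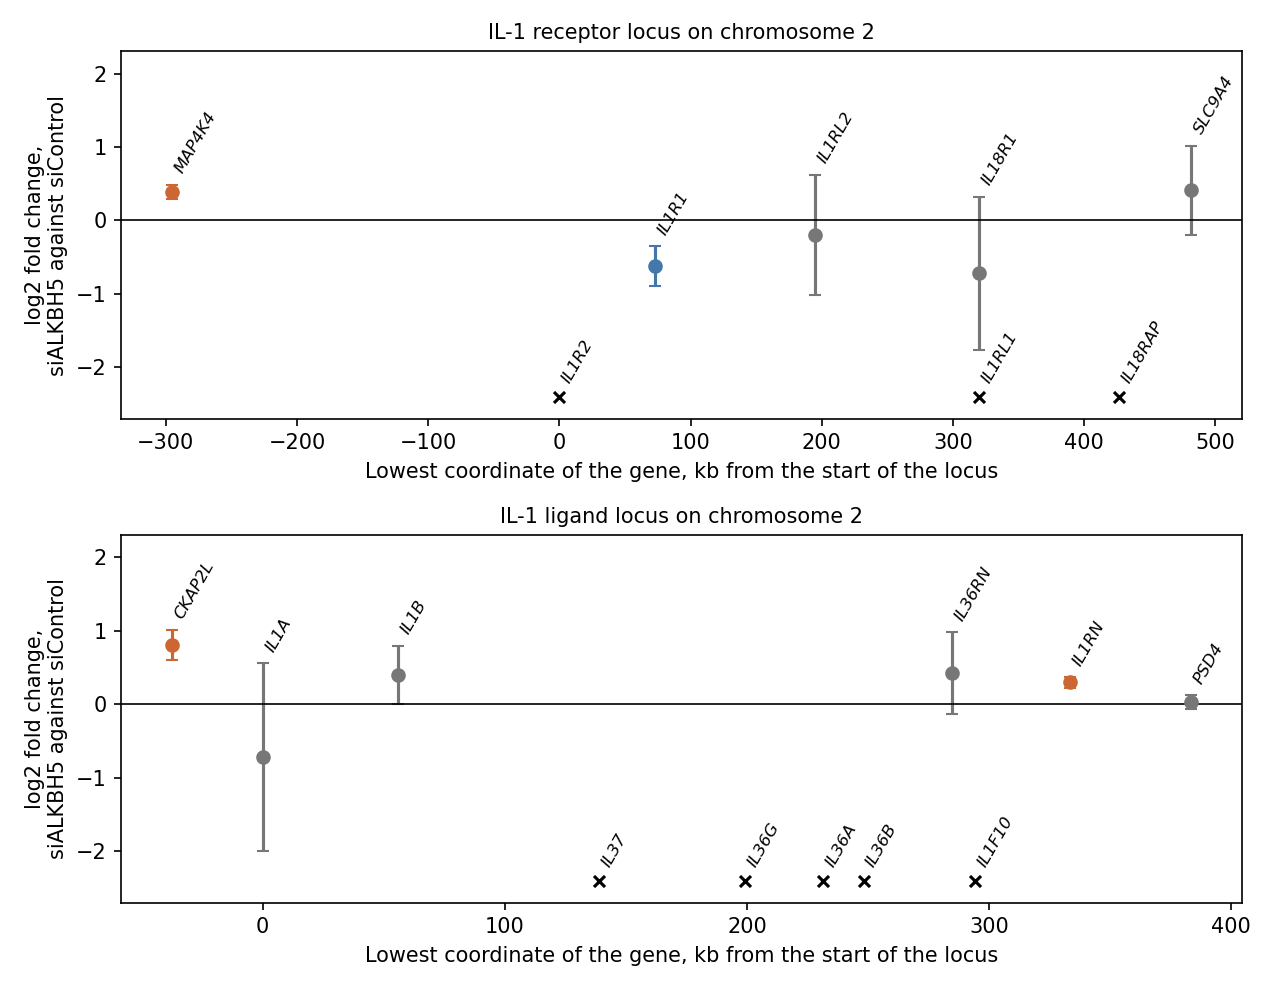
Log2 fold change with 95% interval for the protein-coding genes of the receptor cluster (top) and the ligand cluster (bottom) on chromosome 2, each with 1 flanking gene per side, against distance from the start of the cluster in kb. Orange points passed the test as higher, blue as lower and gray did not pass, and crosses mark genes with too few counts to test. The called genes (MAP4K4, IL1R1, CKAP2L and IL1RN) are scattered among genes that did not pass.

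The m6A mark itself was not measured in these libraries, but the letters GGACT, a form of the consensus in which the mark is placed, were searched on the transcript strand of the principal annotated transcript of each gene (GENCODE 29). Of 12500 protein-coding genes tested for expression, 91.7% held at least 1 match, with a median of 3 matches and of 0.939 per kb. IL18, IL1A and IL33 held 0 matches. IL1RN held 6, or 3.43 per kb, of which 5 lay in the 3′ UTR. IL1RAP held 5 (1.03 per kb), IL1R1 held 4 (0.778 per kb) and IL1B held 4 (2.45 per kb). IL1R2 held 3 (1.90 per kb), IL36G held 3 (2.51 per kb) and IL36RN held 1 (0.370 per kb).

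A site of each of 4 members is shown in 25 bases of transcript sequence, with the central GGACT in capitals and IL1B given on the minus strand. They lie at chr2:113132901-113132925 in the last exon of IL1RN (3′ UTR), at chr2:112830311-112830335 in the last exon of IL1B (3′ UTR), at chr2:102176590-102176614 in the last exon of IL1R1 (coding) and at chr3:190649280-190649304 in the last exon of IL1RAP (3′ UTR):
IL1RN: tgcatggcaaGGACTgcagggactg
IL1B: tgctgaatgtGGACTcaatccctag
IL1R1: gctggtcaggGGACTttacacaggg
IL1RAP: ttgatttaaaGGACTtgtcttctat
The IL1RN window holds another match, left in lower case. Among the members that fell, IL18 held 0 matches and IL1RAP held 5. GGACT is only a form of the consensus, so 0 matches does not mean that a transcript lacks the mark. A link between these matches and the changes was not tested.

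The wider IL-1 system was examined through 4 lists of genes, each to be read against all genes tested, of which 36.6% were called and whose median was -0.0081. Of 10 other family members, 4 were tested, 2 fell and 0 rose, beside 17.3% lower and 19.3% higher over all genes, with a median log2 fold change of -0.35. IL18BP, the soluble inhibitor of IL-18, fell by 0.50 on the log2 scale (edgeR adjusted p = 0.023), from 99 and 126 counts in siControl to 79 and 84 in siALKBH5. SIGIRR, an inhibitory receptor of the family, fell by 0.20 on the log2 scale (edgeR adjusted p = 0.012). Neither call was firm: IL18BP was -0.40 without siControl replicate 2 and -0.37 without siALKBH5 replicate 1, and SIGIRR was -0.17 without siControl replicate 2 and -0.13 without siALKBH5 replicate 2. In these fits and with DESeq2 their adjusted p was over 0.05, reaching 0.200 for IL18BP and 0.183 for SIGIRR.

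Of 17 genes of precursor processing and release, 14 were tested, 4 rose and 4 fell, beside 19.3% higher and 17.3% lower over all genes, with a median of 0.096. CASP1, the protease that matures IL-1β and IL-18, fell by 0.35 on the log2 scale, from 41.6 and 45.1 CPM in siControl to 33.1 and 35.0 CPM in siALKBH5 (edgeR adjusted p = 0.00013). CASP4, the sensor caspase of the noncanonical inflammasome, fell by 0.34 (edgeR adjusted p = 2.6e-09), and CTSS, a cysteine protease, fell by 0.81 (edgeR adjusted p = 1.6e-08). DPP9, which restrains NLRP1, rose by 0.44 (edgeR adjusted p = 5.9e-09). The sensors NLRP3 and AIM2 had at most 1 and 3 counts, and NLRP1, the inflammasome sensor known in keratinocytes, had a log2 fold change of 0.04 (edgeR adjusted p = 0.85).

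Of 11 genes of receptor-proximal signalling, 10 were tested, 1 rose and 1 fell, a smaller part than the 36.6% called over all genes, with a median of 0.051. These were the kinases that follow the receptor, IRAK1 with a log2 fold change of 0.29 (edgeR adjusted p = 9.4e-08) and IRAK4 with -0.30 (edgeR adjusted p = 0.0017). IRAK1 stood at 125 and 123 CPM in siControl and 152 and 152 CPM in siALKBH5. The adaptor MYD88 did not pass, with a log2 fold change of 0.08 (edgeR adjusted p = 0.24).

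Of 27 genes known to respond to IL-1, 15 were tested, 5 rose and 5 fell, beside 19.3% higher and 17.3% lower over all genes, with a median of 0.083. MMP1, an interstitial collagenase, had 186 and 232 counts in siControl against 631 and 629 in siALKBH5, and rose by a log2 fold change of 1.55 (edgeR adjusted p = 3.7e-15), the only gene of the 4 lists to pass the study's own cutoff. CCL2, a monocyte chemokine, rose by 0.85 (edgeR adjusted p = 0.0011), from 47 and 54 counts to 102 and 86. The neutrophil chemokine CXCL1 fell by 0.63 on the log2 scale (edgeR adjusted p = 0.0013), from 134 and 177 counts to 108 and 98, and CXCL8, of the same function, had a value of -0.03 (edgeR adjusted p = 0.94).

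SAA1, an acute-phase protein with a close copy in SAA2 that can share its reads, had a log2 fold change of 0.98 (edgeR adjusted p = 0.015). It was 0.67 without siControl replicate 2 and 0.93 without siALKBH5 replicate 2, where it did not pass the test (edgeR adjusted p up to 0.193), nor did it with DESeq2. Among the inducible cytokines, IL6 had 0 counts in siControl against 4 and 1 in siALKBH5, TNF had 0 in siControl and 1 and 2 in siALKBH5, and CXCL5, CSF3 and DEFB4A had 0 in every library. SAA2, with too few counts to test, had 1 and 1 in siControl against 9 and 12 in siALKBH5. MMP9 and CXCL3, also untested, had 2 and 1 against 8 and 8, and 4 and 3 against 1 and 4.

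**Figure D4:**
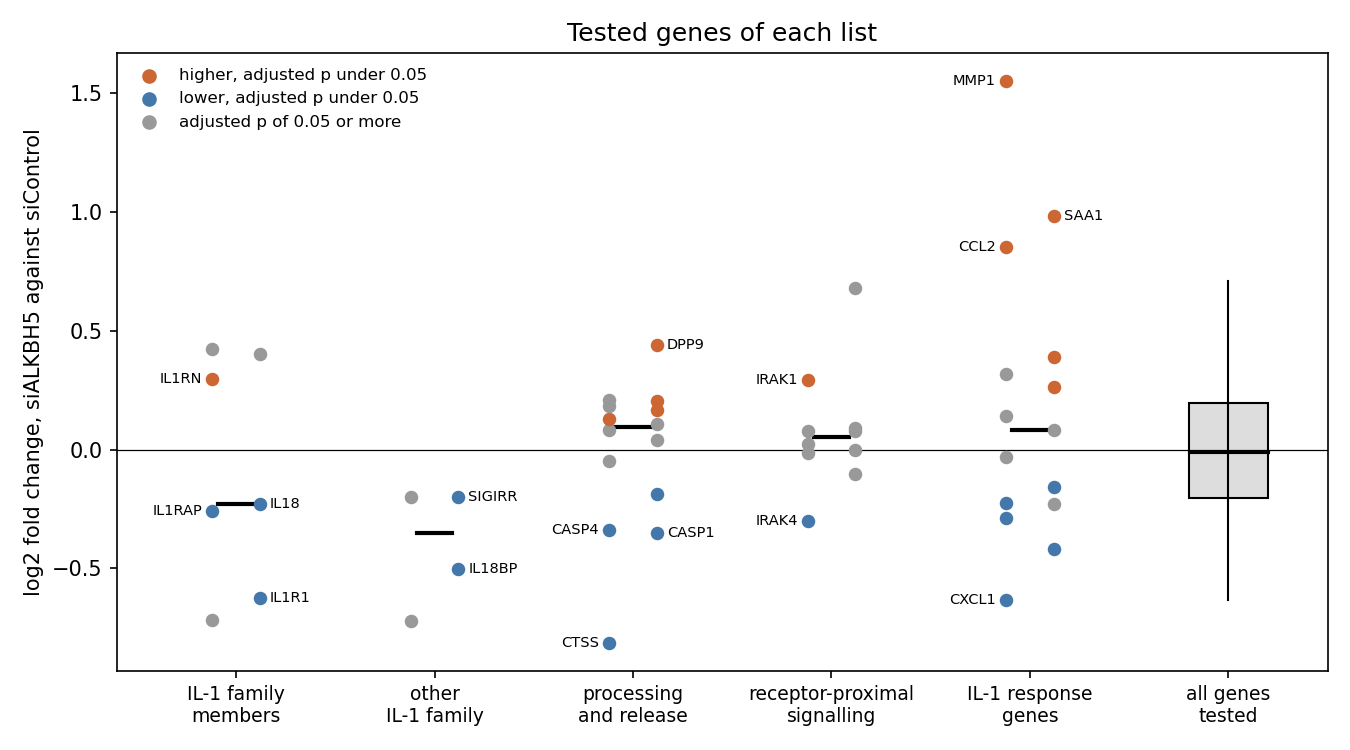
Log2 fold change of the tested genes among the 10 members and the 4 lists, with the median of each as a short line, beside all genes tested as a box from the 25th to the 75th percentile with the median and whiskers at the 5th and 95th percentiles. MMP1 stands highest and CTSS lowest, and each list other than the other family members holds genes on both sides of 0.

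Markers of other cell types that passed the test moved in both directions. Of 6 myeloid markers, 1 was tested, CD14, which rose by 0.64 (edgeR adjusted p = 0.034), and their summed level was 2.42 to 3.39 CPM in siControl and 3.83 to 4.23 CPM in siALKBH5. Of 6 fibroblast markers, 3 were tested and 2 fell, DCN with a log2 fold change of -1.25 and LUM with -1.08. The summed level of the 6 was 21.9 to 22.8 CPM in siControl and 18.7 to 19.1 CPM in siALKBH5. Most of it was COL1A1, which stood at 16.9 CPM in siControl and 16.4 CPM in siALKBH5 and did not pass. Of 3 endothelial markers, VWF rose by 0.51 and CDH5 fell by 0.69 on the log2 scale, and PECAM1 had at most 1 count. The summed level of the endothelial markers, 32.5 CPM in either siControl library and 35.0 to 35.5 CPM in siALKBH5, was the highest of these sets. The 4 melanocyte markers summed to 2.72 to 3.23 CPM in siControl and 3.16 to 3.89 CPM in siALKBH5, and PMEL, the 1 tested, did not pass. The Langerhans cell gene CD207 had at most 1 count. The part of these genes in the values of the members was not tested. Genes that overlap a member in the annotation had at most 8 counts in any library.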

How the data were processed

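The authors sequenced poly-A RNA and deposited raw counts per gene, not normalized, for 2 siControl and 2 siALKBH5 libraries, and the submitters' processing notes name CASAVA, HISAT2 2.0.5, featureCounts 1.5.0-p3 and DESeq2 1.20.0 on hg38. The strand setting of the counting is not given in the sources used here. The deposited FPKM, which the authors scaled within each table of 1 library per group, and the columns of the authors' own comparison of these libraries (fold changes and p-values) were not used. All 58735 identifiers matched GENCODE 29.

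The test was the quasi-likelihood test of edgeR 4.0.16 under R 4.3.3 on all 4 libraries, after filterByExpr and TMM normalization and without covariates, with Benjamini-Hochberg adjustment over all 15075 genes tested, and an adjusted p under 0.05 was called. CPM use TMM-scaled library sizes, and TPM were computed from counts and listed gene lengths. SOD2, listed under 2 identifiers, was taken from the first in sort order, which held counts. Promoters came from RefSeq (GRCh38.p14), and 9 of the 10 members had an entry. The transcript searched for GGACT was the APPRIS principal one with the longest coding sequence.

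The members and lists were chosen with earlier results of these data known. Named genes were the members, ALKBH5, the tested genes of the chromosome 2 clusters and, per list, genes past both call rules or else up to 4 called genes with the largest fold change and a mean CPM of at least 1. Genes at or near 0, SAA2, MMP9, CXCL3, NLRP1, MYD88, CXCL8 and the cell type markers were named after their values were seen. On simulated counts for siALKBH5 against siControl, with 14826 of 15075 genes tested, 74 of 97 genes changed by 1.5-fold and 91 of 99 changed by 2-fold were recovered with 3 false calls. These counts gave every gene the same dispersion, the common value of the fit, so the false calls are no error rate for the real libraries. Alternatives were DESeq2 1.42.0, DESeq2 size factors or library size only in edgeR, no low-count filter, a filter at a mean of 10 counts, a replicate block, the study's fold cutoff, and omission of each library.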

Additional observations from a re-analysis of the deposited data

How the results depend on the processing

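None of the 7 tested members changed direction under any alternative run. The direction of IL33, IL36G and IL1R2, untested in the main fit, was not followed. The 1 higher and 3 lower members stayed 1 and 3 with DESeq2, both other scalings, both other filters and the replicate block, and both counts became 0 with the study's fold cutoff, which leaves 244 higher and 196 lower genes in all. Omitting each library gave members' counts of 1 higher and 2 to 3 lower, and the call lost was that of IL1RAP. In these fits the lone library of a group is assumed to vary like those of the other group. IL1A did not reach the filter at a mean of 10 counts and has no value there. Over all genes, 2913 were higher and 2610 lower, and DESeq2 called 2054 and 1444. Leaving out each library gave 2366 to 2528 higher and 1961 to 2124 lower genes, and a log2 fold change of ALKBH5 from -0.90 to -0.79. The 4 lists together had 10 higher and 12 lower genes, 7 to 10 and 9 to 11 with a library left out, and 8 and 8 with DESeq2. The log2 difference in the ratio of IL1RN to IL1A and IL1B, 0.039, ranged from -0.10 to 0.18 without 1 library and was -0.0063 from raw counts. Same-numbered libraries were deposited in the same table with matching titles, but the labels name no culture or batch that they share. Their deviations correlated at 0.091 over 10416 genes, a value that cannot settle whether they are paired. With the replicate block, 3091 genes were higher and 2831 lower, all 5523 genes called without it among them, and no call of a member or named gene changed. Library size scaling moved the median of all genes from -0.0081 to -0.030. With 2 libraries per group and few counts for IL1A, IL33, IL36G and IL1R2, changes of these genes could not be resolved.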
